A study of Mus musculus with 9 samples.

Results

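The cytoplasmic ribosomal protein genes encode the protein part of the ribosome that translates nuclear-encoded messenger RNA. Members were all rows of the gene count table whose symbol was Rpl or Rps followed by a digit, or was Rpsa, Rplp0, Rplp1 or Rplp2. Rps6k kinase genes, Rps19bp1 and names carrying -ps, which mark pseudogenes, were left out. The rule found 91 members among 49585 rows, of which 54 carry names of the large (60S) subunit and 37 of the small (40S) subunit. It used names only and no measured value. It therefore kept Rpl37rt, Rpl6l, Rps12l1, Rps3a2, Rps3a3 and Rps4l, which the GENCODE vM21 annotation lists as pseudogenes.

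RNA was measured by sequencing of ribosomal RNA-depleted libraries from whole ventricle, with atria and valves removed, of mice in a study of HFpEF, heart failure in which ejection fraction is preserved. All animals were male, came from a C57BL/6 and ICR hybrid background, were labelled 15 weeks, and carried Tcf21iCre and R26 tdTomato. Tamoxifen, given to all of them at week 5, was dosed at 2 mg daily on 5 days in a row. The Ctrl group was fed normal chow. The Ctrl_HF group ate a diet in which fat supplied 60% of the energy and drank water with 1 g/L of L-NAME, which blocks nitric oxide synthases. The TTg_HF group received the same diet and L-NAME and also carried MGTH2A, a transgene that joins Mef2c, Gata4, Tbx5 and Hand2, which encode transcription factors of heart development. Tcf21 marks the cardiac fibroblast lineage, so the Cre driver addresses only part of the cells that whole ventricle holds. The size of that part was not measured here. Transgenic animals on chow were not analysed here, and each group had 3 libraries. Whether each library is a different animal is not stated in the labels. The p-values weigh differences between groups only against the spread of these libraries within groups.

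A ribosome needs its proteins in matched numbers, and their genes are known for being transcribed at high and closely matched rates. In vertebrates their messenger RNAs typically begin with a cytosine followed by a run of pyrimidines, the 5′ terminal oligopyrimidine (TOP) motif, through which mTORC1 controls their translation. In heart and skeletal muscle the 60S protein RPL3 has a muscle-restricted paralog, RPL3L, that can take its place in the ribosome.

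The first bases of annotated transcripts are shown because the TOP motif lies there. They are read 5′ to 3′ from the main transcript of each gene in GENCODE vM21 (assembly GRCm38), with capitals for an unbroken pyrimidine run that opens with C and holds at least 4 further pyrimidines.
Rps24: CTCTTTTCCTCCTCTCCagc
Rpl32: CTTCCTTCTTCCTCggcgct
Rpl30: CCTTTCTCgctccccggcca
Rpl36: CTTCCTgtcccggccgccat
Rpl37a: CTCTTCggacttgggcttgg
Rpl10a: cgcaaagcgctctgccttct
Rpl3: agggggcggagccatcactt
Rpl3l: agctctgtcatttgacctct
Such a start was annotated for 11 of 85 main transcripts of members (12.9%) and for 491 of 21901 main transcripts of all protein-coding genes (2.24%). The count depends on where the annotation places the first base, which these data do not measure.

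Upstream sequence was compared in RefSeq windows of GRCm38.p6 that reach from 250 bases before to 50 bases after the annotated start, 300 bases in all, with 1 window per gene. They held 66 members. The motif CCGGAAG, searched on both strands, was present in 25 of the 66 (37.9%) and in 9.12% of all 27025 windows of the same length. CTTTCC was found in 32 (48.5%, against 26.3% of all windows) and TATAAA in 6 (9.09%, against 14.2%). Of these windows the 120 bases just before the RefSeq start are printed for 3 members, with matches in capitals. They show a stretch with CTTCCGG (the reverse complement of CCGGAAG), one with TATAAA and its reverse complement overlapping, and one with no match. In GENCODE vM21 Rpl22l1 starts at 28805436 and Rpl3l at 24727820, inside the printed windows. The capitals of Rpl22l1 lie after its GENCODE start.
Rps7, chr12:28635954-28636073, minus strand: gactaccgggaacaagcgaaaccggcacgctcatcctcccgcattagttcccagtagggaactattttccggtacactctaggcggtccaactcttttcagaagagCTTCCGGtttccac
Rpl22l1, chr3:28805388-28805507, plus strand: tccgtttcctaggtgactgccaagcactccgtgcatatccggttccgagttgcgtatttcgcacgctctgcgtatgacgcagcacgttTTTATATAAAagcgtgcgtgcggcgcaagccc
Rpl3l, chr17:24727706-24727825, plus strand: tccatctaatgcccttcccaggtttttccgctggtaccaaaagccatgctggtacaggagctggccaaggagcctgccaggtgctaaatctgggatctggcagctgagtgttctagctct

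Libraries held 6743109 to 9364336 counts. On the first principal component of all genes Ctrl_HF replicate 2 (48.5) and Ctrl_HF replicate 3 (23.5) stood apart from the other 7 libraries, which lay between -23.5 and 5.12. Results that rest on Ctrl_HF are therefore also given without single libraries where that changes them. Of the 91 members, 81 passed the filter on low counts, 50 of them 60S and 31 of them 40S. The 10 others were Rpl10l, Rps12l1, Rps27rt, Rps3a2, Rps3a3 and Rps4l, each without a count, together with Rpl37rt (26 counts over the 9 libraries), Rpl39l (8), Rps12 (6) and Rpl6l (2). Rpl10l and Rpl39l are paralogs of Rpl10 and Rpl39, and Rps4l, a relative of Rps4x, is annotated as a pseudogene. Rps12 is a 40S protein found in ribosomes of every cell, yet all of its 6 counts were in TTg_HF replicate 1. A count of 0, which allows up to 3 counts by counting error alone, sets an upper limit of 0.320 to 0.425 per 1000000 counts in the other 8 libraries. Of the 50-base stretches of the Rps12 transcript, 83.6% also occur in transcripts of other genes, and its 23 pseudogene rows held 2 counts in all. The value for Rps12 is not read as its level, and the cause of its low count was not tested.

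Shared sequence concerned most of the family. Among the 81 tested genes, 79 shared at least 1 stretch of 50 bases with another gene and 44 shared 50% or more of their stretches. The 276 rows with pseudogene names held only 1 to 10 counts per library, or 0.0017% to 0.0138% of the counts on members. The sources used here do not say how reads that fit several genes were counted, so levels of the sharing genes are uncertain.

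The members together took 0.741%, 0.767% and 0.864% of all counts in the Ctrl libraries. In Ctrl_HF they took 0.896%, 0.942% and 0.822%, and in TTg_HF 0.839%, 0.879% and 0.900%. The group means were 0.791% ± 0.0652 (SD, n = 3) in Ctrl, 0.887% ± 0.0607 (SD, n = 3) in Ctrl_HF and 0.873% ± 0.0312 (SD, n = 3) in TTg_HF, and the ranges of the 3 groups overlapped. The 60S genes held 0.451% ± 0.0371 of counts in Ctrl, 0.508% ± 0.0358 in Ctrl_HF and 0.491% ± 0.0154 in TTg_HF (SD, n = 3 each). For 40S genes the shares were 0.340% ± 0.0283, 0.379% ± 0.0249 and 0.382% ± 0.0159 in the same order. Both subunits had their lowest mean in Ctrl, and the means of Ctrl_HF and TTg_HF differed by less than the SD of Ctrl_HF.

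**Figure D1:**
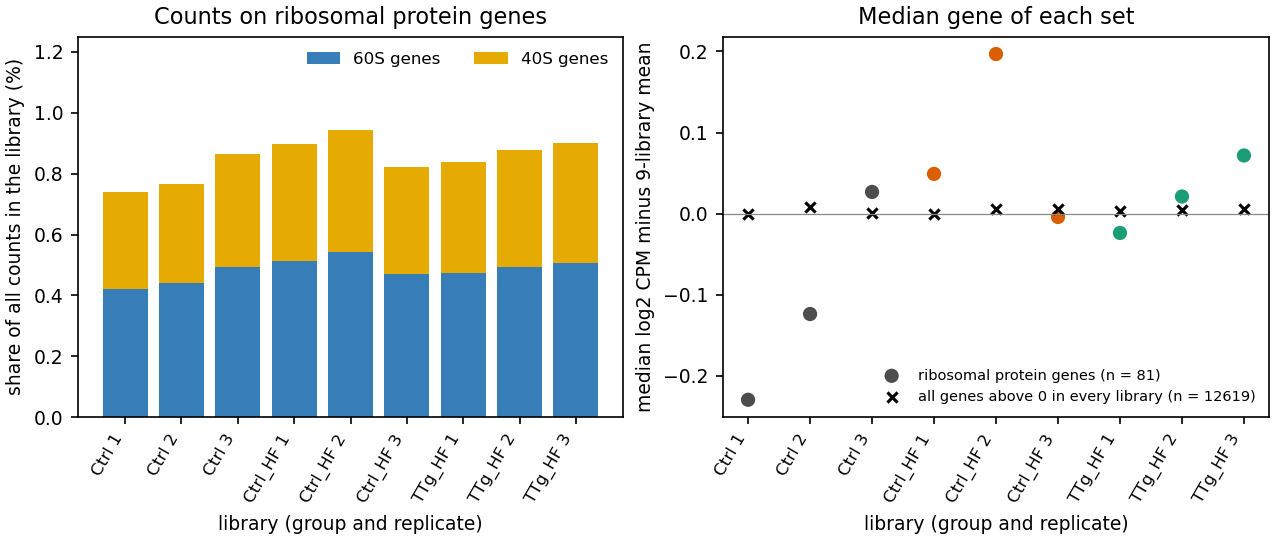
Left, share of all counts on 60S and 40S ribosomal protein genes (stacked bars, percent) in each of the 9 libraries. Right, median over genes of log2 CPM minus each gene's 9-library mean, for the 81 tested members (circles, coloured by group) and for all genes with a count in every library (crosses). The lowest member median is -0.23 in Ctrl replicate 1 and the highest 0.20 in Ctrl_HF replicate 2, while all genes stay within 0.01 of 0.

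Levels per length were compared as mean counts per 1000000 (CPM, after TMM scaling) per kilobase of the main transcript. Over the 81 genes this level had a median of 115 CPM per kb, and 55 genes lay within 2-fold of it. The level depends on which transcript was taken as the main one. Rps15a, at a mean of 99.7 CPM, came to 19.2 CPM per kb with a main transcript of 5179 bases. Among the highest were the 40S genes Rps29 (354 CPM per kb) and Rps15 (344). The lowest were the 60S genes Rpl27 (6.50) and Rpl29 (16.98), and Rpl7l1 (7.34), a relative of Rpl7 whose main transcript is much longer than that of most members. Rpl27 held only 18 to 56 counts per library. Of the 50-base stretches, 64.1% in Rpl27 and 66.6% in Rpl29 also occur in other genes. The values of these 2 genes are not read as their levels, and the cause of their low counts was not tested. The P-stalk genes, whose proteins recruit translation factors to the ribosome, stood at 284 (Rplp1), 261 (Rplp0) and 149 (Rplp2) CPM per kb.

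**Figure D2:**
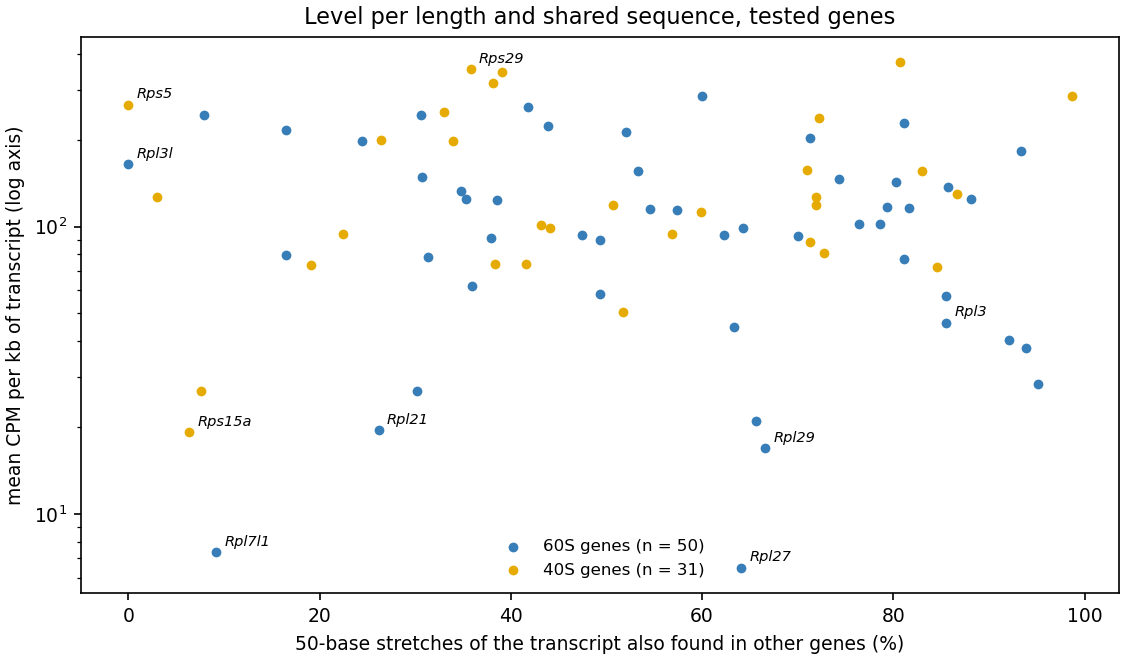
Mean level per length (CPM per kb, log axis) of the 81 tested genes against the share of their transcript's 50-base stretches that also occur in other genes (percent), one point per gene, coloured by subunit. Rpl27, Rpl7l1 and Rpl29 are lowest, and genes with little and with much shared sequence cover the same range of levels.

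Across these 81 genes Spearman's rho between level per length and shared sequence was -0.059, a description over genes that share the same libraries. Most members varied little between libraries. The coefficient of variation of CPM over the 9 libraries had a median of 11.01% and was under 20% in 75 of 81 genes, from 5.40% for Rps27l, a p53-induced relative of Rps27, to 59.0% for Rpl29. Rpl29 gave 4.70, 12.01 and 8.32 CPM in Ctrl, 15.9, 18.3 and 5.10 in Ctrl_HF, and 24.5, 3.90 and 15.8 in TTg_HF. Its 4 highest libraries were in Ctrl_HF and TTg_HF, and each of these groups also held a library below 2 of the 3 Ctrl libraries. Rps28 also stood out in single libraries, with 81.2 CPM in Ctrl_HF replicate 2 and 68.8 in TTg_HF replicate 2 and 34.01 to 45.1 CPM in the other 7 libraries. Rps2 was lowest in TTg_HF replicate 1 (46.6 CPM) and highest in Ctrl_HF replicate 2 (136 CPM).

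High-fat diet with L-NAME was first compared with chow, both without the transgene. Of 81 ribosomal protein genes, 76 were higher and 5 lower in Ctrl_HF, by a median log2 fold change of 0.20, against a median of 0.01 over all 12670 genes. None of the 81 passed an adjusted p of 0.05 in edgeR's quasi-likelihood test with Benjamini-Hochberg adjustment, while 3.61% of all genes tested did. At an unadjusted p under 0.05 there were 26 members (25 higher, 1 lower) where 20.6% of all genes reached it, and DESeq2 called 2 members, Rpl3 and Rpl10a, where it called 6.64% of all genes. The libraries of both groups did not overlap for 22 members that were higher, against 11.5% of all genes, and for 1 that was lower, Rpl30, against 11.8%. In bulk tissue, fewer cells of a type and less RNA per cell cannot be told apart.

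**Figure D3:**
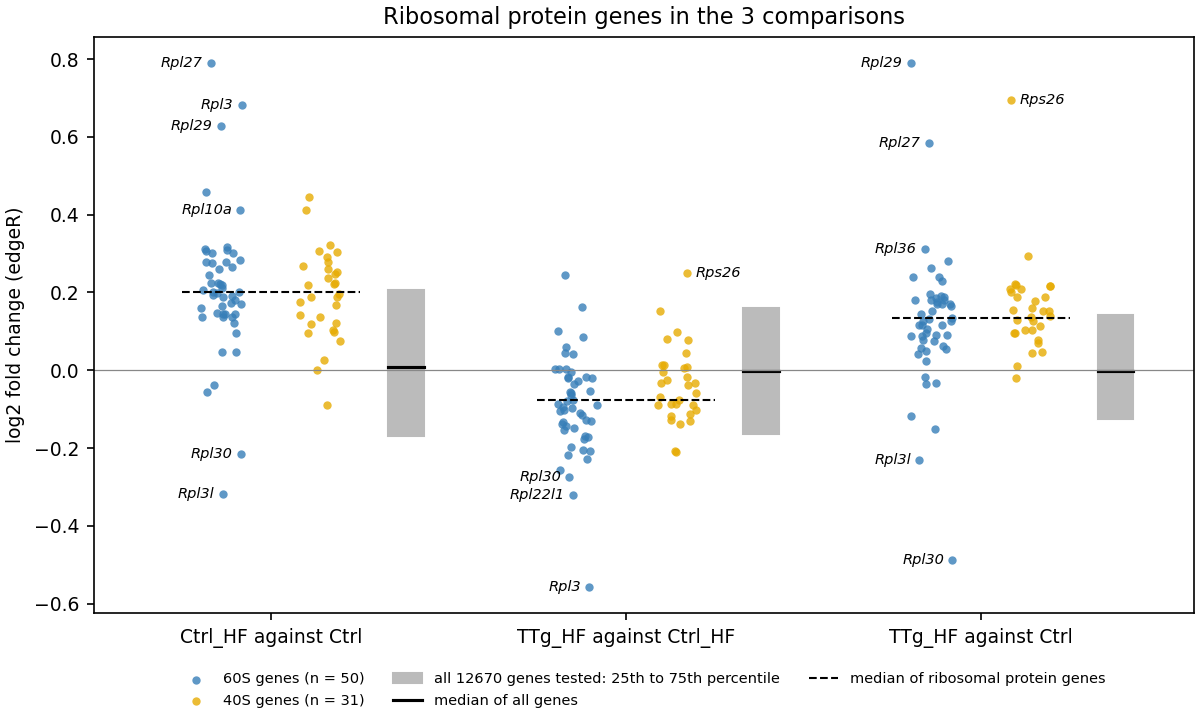
Log2 fold changes from edgeR of 50 60S and 31 40S genes (one point each) in the 3 comparisons, with the members' median as a dashed line, and the 25th to 75th percentile (grey bar) and median (solid line) of all genes tested. The member medians are 0.20, -0.08 and 0.13, and Rpl3 is at 0.68 in Ctrl_HF against Ctrl and lowest of all members, at -0.56, in TTg_HF against Ctrl_HF.

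The small common difference was not evenly spread over libraries. The members' median deviation from their own 9-library means was -0.23, -0.12 and 0.03 (log2) in Ctrl and 0.05, 0.20 and -0.00 in Ctrl_HF. Ctrl replicate 3 was thus slightly above Ctrl_HF replicate 3. The median log2 fold change was 0.14 without Ctrl_HF replicate 2, with 70 of 81 genes higher, and 0.15 without Ctrl replicate 1, with 73 higher. It was 0.28 without Ctrl replicate 3 and 0.25 without Ctrl_HF replicate 3, and 0.20 to 0.22 without any one of the other libraries. Both subunits had medians of 0.20, and so did genes sharing less than 50% and genes sharing at least 50% of their stretches.

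**Figure D4:**
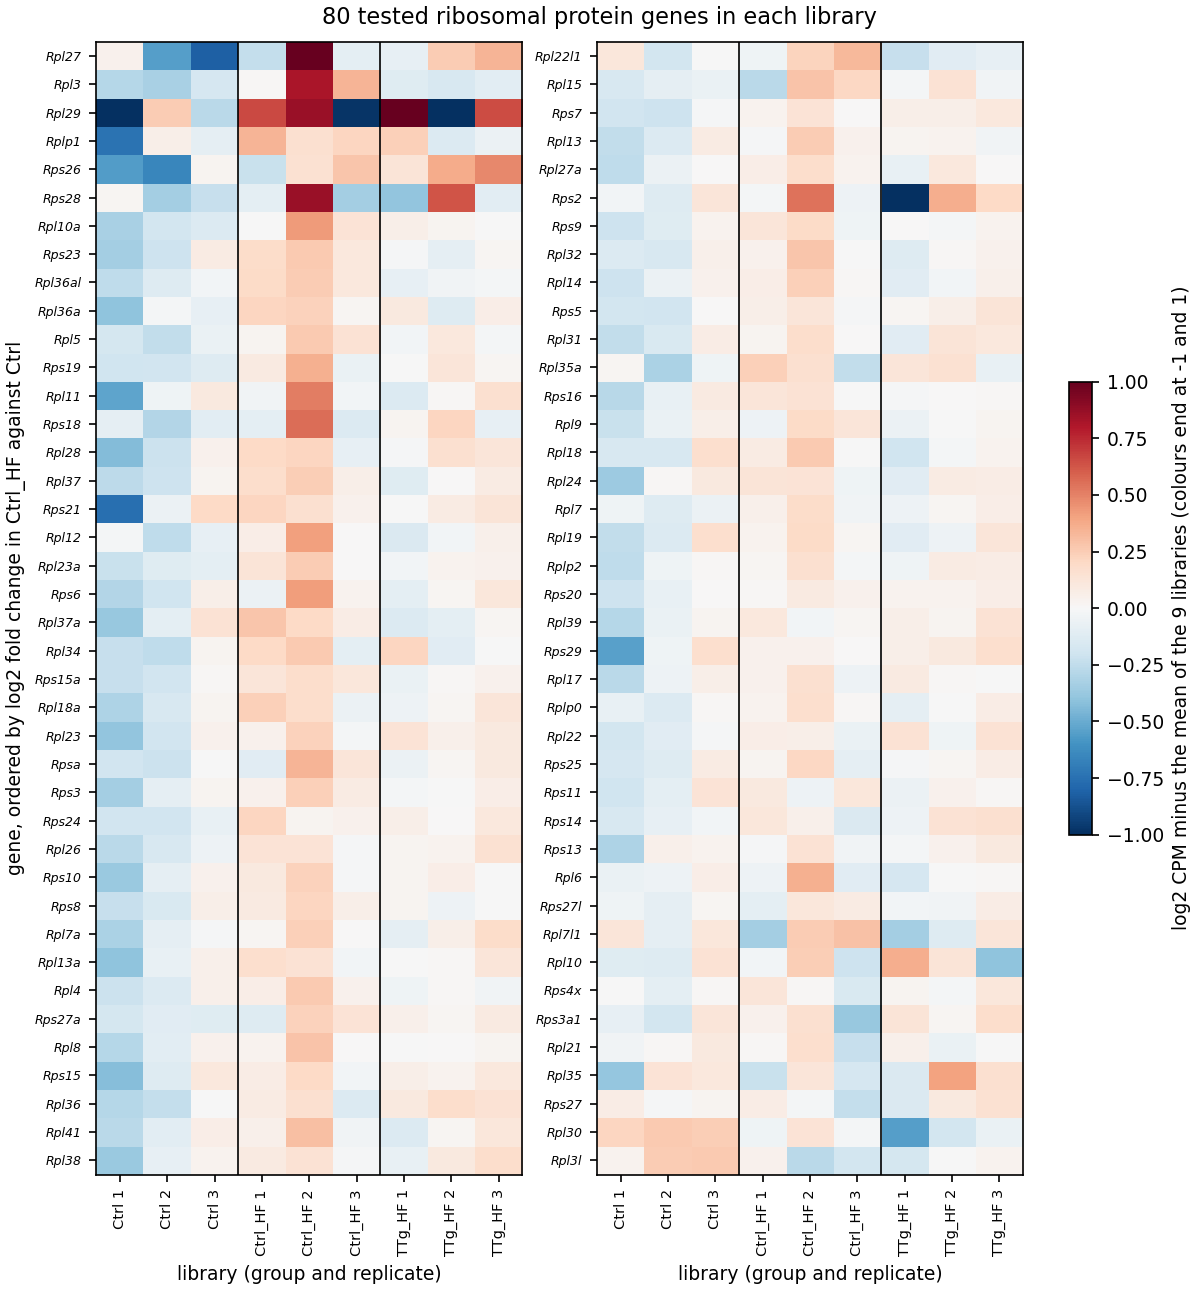
Log2 CPM of each of 80 of the 81 tested genes minus its mean over the 9 libraries (colour, ending at -1 and 1), in 2 blocks of rows ordered by log2 fold change in Ctrl_HF against Ctrl. Ctrl replicate 1 is low and Ctrl_HF replicate 2 high across most rows; Rpl30 and Rpl3l, at the end, are high in Ctrl.

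Rpl3, the housekeeping member of the muscle paralog pair, had the lowest p. It measured 49.7, 48.5 and 54.1 CPM in Ctrl and 61.2, 106.9 and 76.6 CPM in Ctrl_HF. Every Ctrl_HF library was above every Ctrl library, with replicate 2 far above the others. The log2 fold change was 0.68 (SE 0.17, edgeR adjusted p = 0.0501), just outside the threshold, with adjusted p from 0.00296 to 0.185 over 16 alternatives. Rpl3l was 231.5, 269.2 and 269.8 CPM in Ctrl and 232.0, 187.3 and 198.8 CPM in Ctrl_HF. The groups met at Ctrl replicate 1 and Ctrl_HF replicate 1, and the fold change was -0.32 (SE 0.10, edgeR adjusted p = 0.111).

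The reading frames of Rpl3 (1212 bases; gene at chr15:80077791-80091868, minus strand) and Rpl3l (1224 bases; chr17:24727820-24736143, plus strand) were 74.4% identical, with no identical run longer than 22 bases. Rpl3l shared none of its 50-base stretches with another gene, whereas Rpl3 shared 85.6% of them with others. The part of these sharing genes in the Rpl3 values was not tested. The share of Rpl3l in the sum of both genes' counts was 82.3%, 84.7% and 83.3% in Ctrl, and 79.1%, 63.7% and 72.2% in Ctrl_HF. In TTg_HF it was 78.2%, 80.6% and 80.4%. All 3 Ctrl libraries lay above all 6 others, and Ctrl_HF replicate 2 was lowest, with a 95% Wilson interval of 61.5% to 65.7% that covers counting error only.

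**Figure D5:**
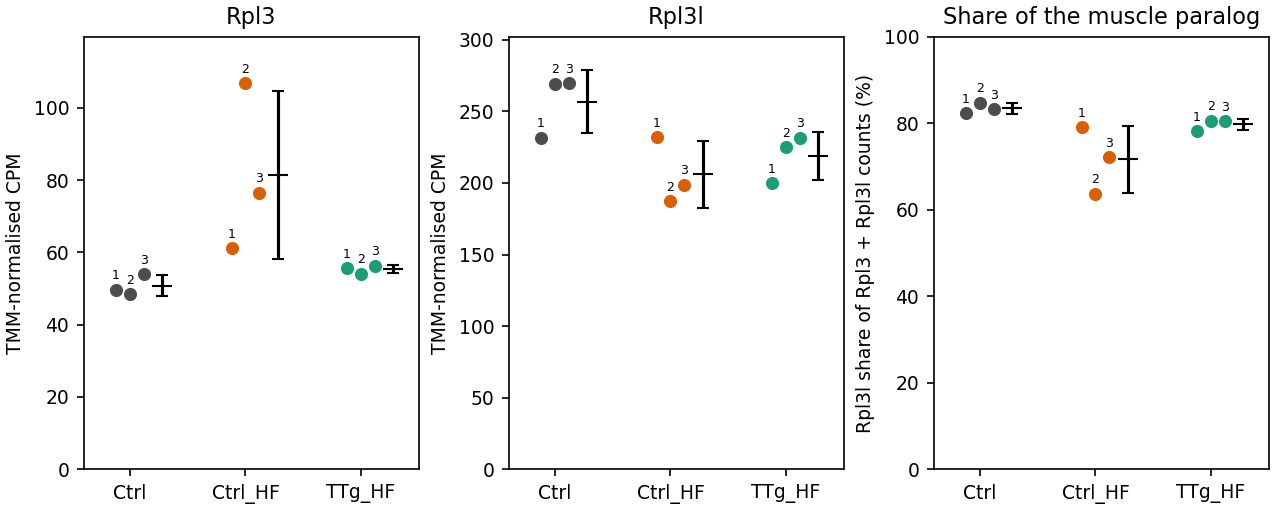
TMM-normalised CPM of Rpl3 (left) and Rpl3l (middle) and the share of Rpl3l in the counts of both genes (right, percent) in each library, numbered by replicate, with group mean and SD (n = 3) in black. Rpl3 is highest in Ctrl_HF replicate 2 (106.9 CPM), where the share of Rpl3l is lowest (63.7%).

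Other 60S genes near the top of the same ranking were Rpl10a, the protein of the L1 stalk, and Rpl5, which binds 5S ribosomal RNA. Rpl10a gave 71.6, 78.9 and 81.7 CPM in Ctrl and 89.7, 120.8 and 98.6 CPM in Ctrl_HF (log2 fold change 0.41, SE 0.11, edgeR adjusted p = 0.0644). Rpl5 gave 67.7, 64.6 and 73.4 CPM in Ctrl and 78.0, 92.0 and 84.9 CPM in Ctrl_HF (0.31, SE 0.09, edgeR adjusted p = 0.0890). Both genes were higher in every Ctrl_HF library than in any Ctrl library, and so were the 60S gene Rpl23a (0.28, adjusted p = 0.0992) and the 40S gene Rps15a (0.27, adjusted p = 0.110). Without Ctrl_HF replicate 1, 7 members passed the threshold, with Rpl3, Rpl5, Rpl10a, Rpl15, Rps27a and Rpsa higher and Rpl3l lower, or 7 of 81, while 8.7% of all genes passed under that setting.

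Stalk genes and paralogs were described next. Rplp1 was 83.2, 145.0 and 130.6 CPM in Ctrl and 176.2, 155.6 and 161.1 in Ctrl_HF, without overlap (log2 fold change 0.46, SE 0.18, edgeR adjusted p = 0.199). Rplp0 (0.14) and Rplp2 (0.14) were nearer to 0, with adjusted p of 0.352 and 0.413. The paralogs Rpl36a and Rpl36al, which encode nearly the same protein, had like values (0.31 and 0.32). Rpl22 and Rpl22l1 had 0.12 and 0.20, Rps27 and Rps27l -0.09 and 0.08, and Rpl7 and Rpl7l1 0.14 and 0.05. Rpl10, Rpl39 and Rps4x, whose relatives Rpl10l, Rpl39l and Rps4l were not tested, had 0.05, 0.14 and 0.03. Rpsa, the laminin receptor and 40S protein, had 0.26 (adjusted p = 0.221).

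Ribosomal proteins with other symbols were of like size. Rack1, a scaffold on the 40S head, had a log2 fold change of 0.22, and Fau, which encodes a ubiquitin-like fusion with the 40S protein eS30, 0.19. Neither passed the test. Among 50 ribosome assembly factors tested, 48 were higher, with a median of 0.31. The threshold was passed by 3.61% of all genes tested and by 1 of the 50. That was Npm1, the nucleolar chaperone, at 73.5, 76.7 and 72.2 CPM in Ctrl and 92.4, 121.2 and 93.3 in Ctrl_HF (log2 fold change 0.46, SE 0.11, edgeR adjusted p = 0.0403). The Npm1 call was made in 6 of 16 alternatives and was lost when any library other than Ctrl_HF replicate 1 was left out (adjusted p up to 0.127 over the alternatives). Without Ctrl_HF replicate 2 the list's median was 0.15, with 41 of 50 higher and none called. Without Ctrl_HF replicate 1 there were 12 calls, with 8.7% of all genes called.

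A list of 22 genes with TOP mRNAs held translation factors and also others such as Tpt1 and Nap1l1. Of the 22, 17 were higher (median 0.10) and Eef1a1, the elongation factor that delivers aminoacyl-tRNA, passed, as did 3.61% of all genes tested. Eef1a1 was 449.4, 441.4 and 470.5 CPM in Ctrl and 620.8, 646.6 and 560.1 in Ctrl_HF. Its groups were far apart (log2 fold change 0.42, SE 0.07, edgeR adjusted p = 0.0122), and it was called in 14 of 16 alternatives, the exceptions being without Ctrl replicate 2 and with only the 2 groups fitted (adjusted p up to 0.0732). Of 33 other initiation and elongation factors, 23 were higher (median 0.12) and Eif5, the GTPase activator of initiation, passed. Eif5 was 111.7, 108.5 and 103.6 CPM in Ctrl and 146.8, 216.0 and 212.7 in Ctrl_HF, without overlap (log2 fold change 0.83, SE 0.14, edgeR adjusted p = 0.0119). Its call was lost without Ctrl replicate 2 or 3 (adjusted p up to 0.0647). Of 30 genes of the mTORC1 pathway and TOP mRNA regulation, 14 were higher (median -0.06), and none passed. Mtor itself had 0.30 (adjusted p = 0.0589). Of 15 RNA polymerase I genes 10 were higher (median 0.09) and none passed. The 14 noncoding hosts of small nucleolar RNAs had a median of 0.42, with 13 higher and none called. Myc, a regulator of ribosome production, was 3.46, 4.50 and 5.28 CPM in Ctrl and 14.7, 48.5 and 9.50 in Ctrl_HF (log2 fold change 2.44, SE 0.64, adjusted p = 0.0868), highest in replicate 2. Short respiratory chain and ATP synthase mRNAs, tested as other short abundant messages, were higher in 8 of 46 (median -0.06).

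Markers of several cell types differed alongside. The summed level of 14 cardiomyocyte markers was 114302 to 126366 CPM in Ctrl, 107705 to 108275 in Ctrl_HF and 103334 to 106020 in TTg_HF, with 2 of 14 called lower in Ctrl_HF. The 12 fibroblast markers summed to 2151 to 2309 CPM in Ctrl, 2498 to 3404 in Ctrl_HF and 2787 to 3150 in TTg_HF, with none called. The 12 macrophage and monocyte markers summed to 294 to 358, 398 to 521 and 386 to 441 CPM, with 3 of 12 called higher in Ctrl_HF. The 9 smooth muscle and pericyte markers summed to 1512 to 1739, 1356 to 1464 and 1357 to 1490 CPM, with 1 of 9 called lower in Ctrl_HF. The 11 endothelial markers summed to 1493 to 1803, 1729 to 1965 and 1700 to 1959 CPM, with none called. No marker in these lists was at 0. In Ctrl_HF against Ctrl edgeR called 3.61% of all genes tested. The 8 neutrophil markers were scarce, at 2.81 to 7.65 CPM in Ctrl, 10.4 to 13.1 in Ctrl_HF and 2.46 to 5.12 in TTg_HF, with Ly6g at 0 and none of the 3 tested called. The 7 erythroid markers summed to 429 to 658, 778 to 945 and 191 to 836 CPM, again with none called, and markers of T, natural killer and B cells and of adipocytes were too low to test. The part of these differences in the ribosomal protein values was not tested.

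The transgene was then compared within the diet and L-NAME model. The Ctrl_HF libraries also served the first comparison, so the 2 comparisons are not independent. A high value in Ctrl_HF raises the first fold change and lowers this one. In TTg_HF against Ctrl_HF, 20 members were higher and 61 lower, with a median log2 fold change of -0.08 against -0.00 for all genes. None passed the threshold in edgeR's test, and neither did DESeq2 call one, while 0.0868% of all genes tested passed in edgeR and 2.6% in DESeq2. An unadjusted p under 0.05 was reached by 3 members, all lower (Rpl3, Rpl30 and Rpl36al), and by 14.3% of all genes. Libraries of both groups did not overlap for 9 members that were lower, against 9.53% of all genes, and for 1 that was higher, Rps29, against 9.31%. Without Ctrl_HF replicate 2 the median was 0.01, and 43 of 81 genes were higher.

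Rpl3 also had the lowest p here, with the same Ctrl_HF libraries as in the first comparison. In TTg_HF it measured 55.7, 54.2 and 56.3 CPM, below all 3 Ctrl_HF libraries and above all 3 Ctrl libraries. The fold change against Ctrl_HF was -0.56 (SE 0.16, edgeR adjusted p = 0.184), and it was called in 1 of 16 alternatives (adjusted p from 0.0103 to 0.426). That call was made without Ctrl_HF replicate 1 (-0.72), where 5.16% of all genes passed, while without Ctrl_HF replicate 2 the value was -0.32 (adjusted p = 0.371). Rpl3l was 199.9, 224.8 and 231.5 CPM in TTg_HF, overlapping Ctrl_HF (0.09, SE 0.10, adjusted p = 0.743).

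Rpl30, a 60S protein with a TOP start, was lowest in the transgenic hearts and, like Rpl3l, highest on average in Ctrl. It measured 66.7, 68.8 and 68.1 CPM in Ctrl, 55.9, 63.2 and 56.6 in Ctrl_HF, and 39.3, 50.6 and 55.0 in TTg_HF. The 3 groups did not overlap. Against Ctrl_HF the fold change in TTg_HF was -0.27 (SE 0.12, edgeR adjusted p = 0.325). Of its 50-base stretches, 76.4% also occur in other genes. The remaining genes of lowest p were Rpl36al (-0.23), Rpl22l1 (-0.32), Rpl37a (-0.26) and the 40S gene Rps23 (-0.21), with adjusted p between 0.350 and 0.425.

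In the same comparison 4 of 50 ribosome assembly factors were higher (median -0.34) and none was called by edgeR. An unadjusted edgeR p under 0.05 was reached by 23 of the 50, against 14.3% of all genes. DESeq2 called 4 of the 50, where it called 2.6% of all genes. Without Ctrl_HF replicate 1, 11 were called lower, with 5.16% of all genes called. Without Ctrl_HF replicate 2 none was called, and the median was -0.20. Gnl3, a nucleolar GTPase, was 21.8, 40.5 and 26.99 CPM in Ctrl_HF and 14.8, 16.1 and 15.6 in TTg_HF, without overlap (log2 fold change -0.93, SE 0.22, edgeR adjusted p = 0.116). Respiratory chain mRNAs were higher in 43 of 46 (median 0.09) and none was called.

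The transgenic model hearts were last compared with chow hearts, a contrast in which diet, L-NAME and transgene differ together and whose controls also served the first comparison. In TTg_HF against Ctrl, 73 members were higher and 8 lower (median 0.13, against -0.00 for all genes). None passed the threshold in edgeR's test, where 0.466% of all genes did, and DESeq2 called 1, Rpl30, lower, and 1.31% of all genes. An unadjusted p under 0.05 was reached by 11 members (9 higher, 2 lower), against 9.41% of all genes. Groups did not overlap for 16 members that were higher, against 9.23% of all genes, and 1 that was lower, Rpl30, against 9.48%. Without Ctrl replicate 1 the median was 0.06, and without Ctrl replicate 3 it was 0.20.

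Rpl30 had the lowest p in this comparison, with a log2 fold change of -0.49 (SE 0.12, edgeR adjusted p = 0.126). Rps26, a 40S protein at the messenger RNA exit, was 33.1, 31.2 and 49.9 CPM in Ctrl, 41.9, 54.4 and 59.2 in Ctrl_HF, and 53.4, 63.2 and 68.1 in TTg_HF. TTg_HF lay above Ctrl in every library and overlapped Ctrl_HF, and its fold change against Ctrl was 0.69 (SE 0.19, edgeR adjusted p = 0.210). Rpl36 (0.31), Rpl26 (0.23), Rps24 (0.21) and Rps7 (0.21) followed, with adjusted p between 0.316 and 0.434, and all 4 lay above Ctrl in every TTg_HF library.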

How the data were processed

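Raw gene counts for 9 libraries were taken as deposited by the authors, with normalised signal values beside them in the same table. Per the submitters' processing notes the build is mm10; the sources used here name no aligner, counting program, annotation or strand setting. The library kit keeps strand, per the labels' protocols. The third deposited column per library is the authors' log2 of the normalised value plus 1, per the file headers and the values, and was not analysed. The authors' factors were recovered from the deposited signal columns and used as an alternative only.

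All 9 libraries were fitted together in edgeR 4.0.16 (R 4.3.3) with TMM scaling, a filter on low counts (filterByExpr, minimum count 10, minimum total 15; 12670 genes left) and the robust quasi-likelihood test. p-values were adjusted by Benjamini-Hochberg over all 12670 genes, at a threshold of 0.05. The fit was tested on simulated data with changes larger than the member medians, so that test does not cover differences of their size. DESeq2 1.42.0, other scalings, no filter, a replicate term, only the 2 groups compared and leaving out each library were alternatives. Transcript lengths, starts, coordinates and shared stretches of 50 bases, a length chosen because read length is not known, came from GENCODE vM21. Promoter windows came from RefSeq. The interval for Rpl3l is at 95%, from whole counts.

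Members and gene lists were chosen with earlier results of these data known. Named members are paralog pairs, stalk genes and Rpsa, the 6 of lowest p per comparison where fewer than 6 passed, and the 3 highest and 3 lowest per length; from other lists the 2 of lowest p were named. Rpl29, Rps2 and Rps28 were also named for their spread after their values were seen, and alternatives for the other translation genes were added after seeing the data. Some genes the rule names are not reported here.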

Additional observations from a re-analysis of the deposited data

How the results depend on the processing

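Calls depended on settings. In Ctrl_HF against Ctrl, 1 member was called with RLE size factors and 1 with the authors' factors (Rpl3; 3.65% and 3.46% of all genes), 2 without a filter on low counts and 2 with DESeq2 (Rpl3 and Rpl10a; 2.75% and 6.64% of all genes), and 0 to 7 with a library left out (0.662% to 8.7% of all genes). In TTg_HF against Ctrl_HF leaving out a library gave 0 to 1 calls, the one without Ctrl_HF replicate 1 (5.16% of all genes). In TTg_HF against Ctrl 1 was called without a filter and 1 with DESeq2 (Rpl30; 0.589% and 1.31% of all genes). With a replicate block there were 0 calls in each comparison, with medians of 0.20, -0.08 and 0.13. Same-numbered libraries deviated together with correlations of -0.164 to 0.197, so the numbers were not taken to pair libraries. Shares of counts without the mitochondrial genome were 0.885%, 0.995% and 0.990% (Ctrl, Ctrl_HF, TTg_HF). Members without paralogs took 0.755%, 0.856% and 0.841% of all counts, mitochondrial genome included, in the same order. Of 76 named fold changes, 61 kept their sign under all 16 alternatives. With the authors' factors Rps15 (0.00850) and Rplp2 (0.00776) turned positive in TTg_HF against Ctrl_HF. With a library left out, some log2 fold changes crossed 0. Among them were Rpl27 (-0.21 in the main fit) and Rpl29 (0.16) in TTg_HF against Ctrl_HF. Such fold changes are given with their spans over all 16 alternatives. In Ctrl_HF against Ctrl they spanned -0.033 to 0.30 (Rps29), -0.066 to 0.23 (Rpl7l1), -0.076 to 0.15 (Rpl10) and -0.038 to 0.094 (Rps4x). In TTg_HF against Ctrl_HF they spanned -0.43 to 0.35 (Rpl27), -0.068 to 0.040 (Rps15), -0.094 to 0.0039 (Rps27l), -0.11 to 0.0046 (Rpl7), -0.055 to 0.036 (Rplp2), -0.21 to 0.014 (Rpsa), -0.41 to 0.63 (Rpl29), -0.13 to 0.23 (Rpl10) and -0.024 to 0.11 (Rps4x). In TTg_HF against Ctrl they spanned -0.048 to 0.095 (Rps27) and -0.077 to 0.28 (Rpl10). The cause was not tested. With 3 libraries a group, the members' library medians had a pooled SD within groups of 0.0995 (log2). The member medians of the 3 comparisons were 0.20, -0.08 and 0.13. None of these was larger than the range of the Ctrl libraries alone (-0.23 to 0.03).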

Other observations

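Targets of p53, a factor known to respond to impaired ribosome assembly, were also measured. In Ctrl_HF against Ctrl 2 of 16 passed edgeR's threshold, as did 3.61% of all genes tested. Gdf15, a stress-induced cytokine, was 4.82, 2.31 and 3.17 CPM in Ctrl, 10.4, 13.6 and 8.11 in Ctrl_HF and 6.89, 4.64 and 5.51 in TTg_HF (log2 fold change against Ctrl 1.64, SE 0.29, edgeR adjusted p = 0.0152). Cdkn1a, the cell cycle inhibitor p21, was 65.3, 25.5 and 31.5 CPM in Ctrl, 128.2, 125.5 and 115.4 in Ctrl_HF and 70.4, 59.2 and 53.4 in TTg_HF (1.60, SE 0.31, edgeR adjusted p = 0.0371). The Cdkn1a call was made in 6 of 16 alternatives and the Gdf15 call in 13. For both genes the Ctrl_HF libraries lay above all Ctrl and all TTg_HF libraries. Of all genes, 11.5% were higher without overlap in Ctrl_HF against Ctrl, and 9.53% lower without overlap in TTg_HF against Ctrl_HF. In TTg_HF against Ctrl_HF none of the 16 passed edgeR's threshold (Gdf15 log2 fold change -0.92, edgeR adjusted p = 0.185), while 0.0868% of all genes did. The list's median in Ctrl_HF against Ctrl was 0.10, with 12 of 16 higher.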
